A study of Mus musculus with 8 samples.

Results

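Outside the interferon genes, 51 of 13062 tested genes departed from additivity between loss of 1 Tfam allele and loss of Zbp1. They did so in both directions, and include factors of body patterning, secreted signals and the extracellular matrix. The 2 libraries of a genotype are not tied to embryos, so genotype cannot be told apart from embryo or culture. The count of genes fell to 0 when either wild-type library was left out. Genes of mitosis were called only above 0, and only when 2 shifted libraries were left out. The interaction of a gene was taken as the log2 effect of Tfam heterozygosity in cells without Zbp1, less that effect in cells with Zbp1. A value of 0 means that the effects of the 2 genotypes add up on the log2 scale, a value above 0 that Tfam heterozygosity raised the gene more, or lowered it less, in cells without Zbp1. Of 24972 genes in the table, 13267 had a mean of at least 10 normalized counts and were tested. The genes described here are the 13062 of these that are in neither of 2 lists of interferon-stimulated genes, which held the other 205. Tests were made with limma, a linear model fitted per gene on log2(value + 1), and p-values were adjusted over all 13267 genes.

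The libraries were from primary mouse embryonic fibroblasts (MEFs), cultures grown from dissociated embryos, here of embryonic day 14. All cells were untreated, grown in DMEM with fetal bovine serum and passaged 2 times. The 4 genotypes, with 2 libraries each, were wild type (WT), heterozygous for Tfam (Tfam+/-), without Zbp1 (Zbp1-/-), and both (Tfam+/-Zbp1-/-). Both Tfam+/- groups keep 1 intact Tfam allele. The labels do not tie libraries to embryos or cultures, so the p-values measure only the spread between these libraries, which may be technical.

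TFAM packages mitochondrial DNA and is needed for its transcription and copy number. A shortage of it disturbs the mitochondrial nucleoid, and mitochondrial DNA then reaches sensors in the cytosol that switch on interferon-stimulated genes. ZBP1 is a sensor of Z-form nucleic acids and is itself interferon-stimulated. Fibroblasts grown from whole embryos are a mixture from many body regions, and they retain in culture the Hox code of the region they came from.

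The targeted genes were measured first. Tfam stood at 629 and 610 normalized counts for WT, 278 and 365 for Tfam+/-, 675 and 471 for Zbp1-/- and 424 and 375 for Tfam+/-Zbp1-/-. It was lower in all 4 heterozygous libraries than in any of the others. Zbp1 was at 7.34 and 3.19 for WT, 64.6 and 69.8 for Tfam+/-, 3.79 and 1.03 for Zbp1-/- and 0.862 and 2.69 for Tfam+/-Zbp1-/-. It was high in Tfam+/- alone, and its WT values overlapped those of Zbp1-/-, so by this gene WT could not be separated from the Zbp1-deficient cells.

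Library totals were 16752835 to 18303036 normalized counts. Tfam+/- replicate 1 and Zbp1-/- replicate 2 stood apart from their partners: the median absolute log2 difference between replicates was 0.35 for Tfam+/- and 0.32 for Zbp1-/-, against 0.07 for WT and 0.06 for Tfam+/-Zbp1-/-. Among genes at 20 to 2000 normalized counts, the squared replicate difference over the summed level had a median 1.16 times that of counting noise in WT and 1.14 times in Tfam+/-Zbp1-/-, against 18.3 times in Tfam+/- and 16.2 times in Zbp1-/-. The WT pair and the Tfam+/-Zbp1-/- pair thus differed by little more than counting noise, except among genes above 10000, where the ratios were 2.50 and 4.30. Both shifted libraries enter the interaction with the same sign, so values are given with all 8 and with the 6 libraries without them, where Tfam+/- and Zbp1-/- have 1 library each. The lone libraries are taken to have the small spread of the other pairs, which makes calls from 6 libraries lenient. The 11 fibroblast markers were all tested, and their summed level was 344965 to 558424.

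With all 8 libraries, 51 of the 13062 genes (0.390%) passed limma's test at an adjusted p under 0.05. The interaction was above 0 in 29 of them (0.222%) and below 0 in 22 (0.168%). Over all 13267 genes 0.663% were called, and the 37 called interferon genes were all below 0. In 6 libraries 2406 of the genes outside the interferon lists were called (18.4%), with 1320 above 0 (10.1%) and 1086 below 0 (8.31%). All 51 genes were among these with the same sign, and 337 of the 2406 had the opposite sign with 8 libraries.

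Counts called in a gene list further below are to be set against the shares just given over all 13062 genes. For counts at an unadjusted p under 0.05 with 8 libraries, the number to set them against is 2000 of the 13062 genes (limma). The calls rest on few libraries. The 51 genes were chosen from these same libraries, so a sign kept in part of them, as in the 6, is no separate support. Each of the 51 genes kept its sign without any 1 library, and apart from Evi2b no estimate moved by more than 0.38. However, limma called 0 genes (at least 905 at an unadjusted p under 0.05) when either WT library, either Tfam+/-Zbp1-/- library or Zbp1-/- replicate 2 was left out. It called 15 without Tfam+/- replicate 1, 89 without Tfam+/- replicate 2 and 34 without Zbp1-/- replicate 1. With the WT pair and the Tfam+/-Zbp1-/- pair each counted as 1 library, limma called 0 genes and 340 had an unadjusted p under 0.05. The count from 6 libraries fell to 268 when limma's prior variance had no trend with expression.

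**Figure D1:**
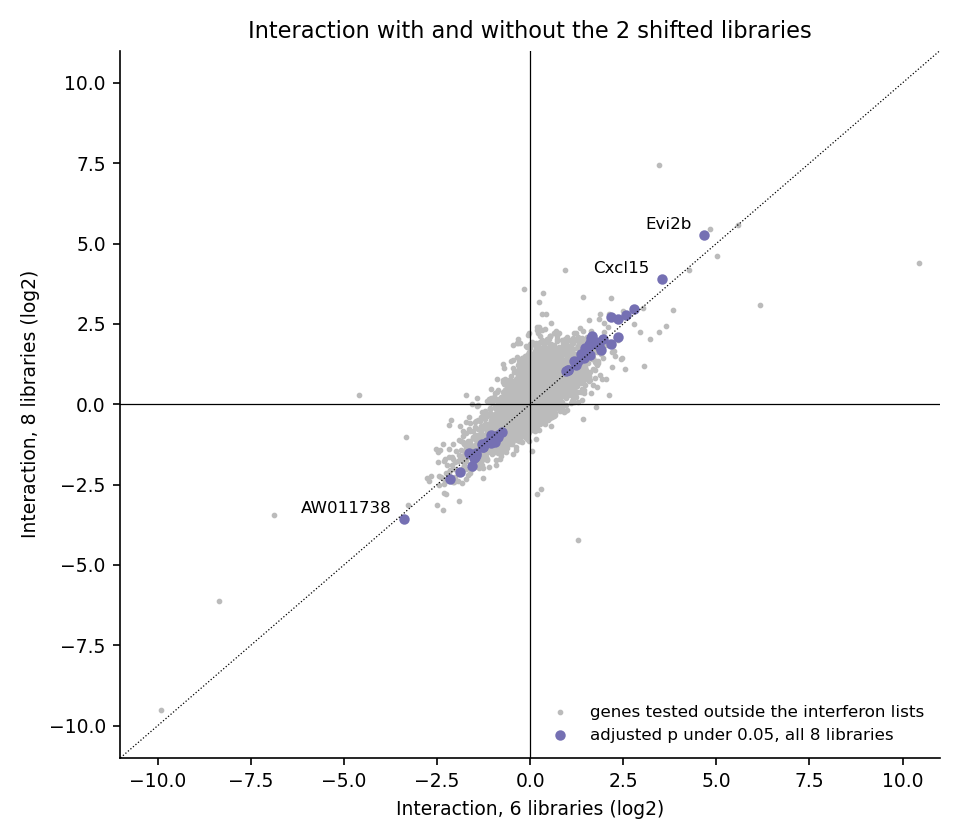
Interaction of each gene outside the interferon lists with 6 libraries (x axis, log2) and with all 8 (y axis, log2). Grey points are the 13062 genes tested, purple points the 51 called with 8 libraries, and the dotted line marks equal values; the purple points lie near that line on both sides of 0, from AW011738 at -3.57 to Evi2b at 5.26 with 8 libraries.

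In most of the called genes the difference between group means had opposite signs in cells with and without Zbp1. All 29 genes above 0 had a mean below that of WT in Tfam+/-, by a median log2 difference of -0.70, and 28 had a mean above that of Zbp1-/- in Tfam+/-Zbp1-/-, by a median of 1.02. Of the 22 genes below 0, 20 lay above WT in Tfam+/- and all 22 lay below Zbp1-/- in Tfam+/-Zbp1-/-, by medians of 0.49 and -0.76. The exceptions were Enpep above 0, and Ngfr and Dpt below 0. Only signs were counted, and some differences were near 0. Sim2 in Tfam+/-Zbp1-/- was above Zbp1-/- by 0.01. In Tfam+/-, Kcne4, Heg1 and Hoxb9 were above WT by 0.06, 0.08 and 0.11. These genes were chosen by the interaction itself, so these counts describe them and test nothing.

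In terms of levels, the genotype farthest from the other 3 was Tfam+/-Zbp1-/- in 15 of the 29 genes above 0, where it was highest, and Tfam+/- in 10, where it was lowest. Zbp1-/- was lowest in 3 and WT highest in 1. Below 0, Tfam+/-Zbp1-/- was lowest in 11 of 22, Tfam+/- highest in 4, Zbp1-/- highest in 4 and WT lowest in 3.

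Several secreted signals and the enzymes that make them were above 0. Cxcl15, a chemokine, was at 33.7 and 32.2 normalized counts for WT, 3.87 and 7.25 for Tfam+/-, 35.6 and 36.7 for Zbp1-/- and 106 and 97.6 for Tfam+/-Zbp1-/-. WT and Zbp1-/- were close, Tfam+/- was lower than any other library, and Tfam+/-Zbp1-/- was higher. The interaction was 3.89 ± 0.40 (SE, limma adjusted p = 0.0199) with 8 libraries and 3.53 with 6. Adcyap1, which encodes the neuropeptide PACAP, read 31.8 and 38.7 for WT, 12.1 and 16.4 for Tfam+/-, 30 and 31.9 for Zbp1-/- and 102 and 103 for Tfam+/-Zbp1-/-. WT and Zbp1-/- overlapped between a lower Tfam+/- and a higher Tfam+/-Zbp1-/-, with an interaction of 2.96 ± 0.32 (limma adjusted p = 0.0204) and 2.80 in 6 libraries.

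Enpp2 encodes autotaxin, which makes lysophosphatidic acid outside the cell. Its values were 401 and 379 for WT, 113 and 152 for Tfam+/-, 264 and 262 for Zbp1-/- and 603 and 621 for Tfam+/-Zbp1-/-. No 2 genotypes overlapped, and the interaction was 2.78 ± 0.22 (limma adjusted p = 0.0146), or 2.57 in 6 libraries. Enpp1, a related enzyme that cleaves nucleotides such as ATP at the cell surface, read 703 and 681 for WT, 357 and 416 for Tfam+/-, 524 and 477 for Zbp1-/- and 1074 and 1075 for Tfam+/-Zbp1-/-. The order of its genotypes was that of Enpp2, and its interaction was 1.94 ± 0.17 (limma adjusted p = 0.0179), or 1.77 in 6 libraries.

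The opioid precursor Penk and the peptide ligand Apln were also called. Penk was at 1199 and 1153 for WT, 832 and 720 for Tfam+/-, 2067 and 2461 for Zbp1-/- and 4819 and 4730 for Tfam+/-Zbp1-/-, an interaction of 1.68 (limma adjusted p = 0.0204), or 1.91 in 6 libraries. Apln was at 379 and 399 for WT, 351 and 324 for Tfam+/-, 292 and 301 for Zbp1-/- and 727 and 772 for Tfam+/-Zbp1-/-, an interaction of 1.54 (limma adjusted p = 0.0193), or 1.62 in 6 libraries. In both genes Tfam+/-Zbp1-/- was above every other library. They and Adcyap1 were the 3 genes called with 8 libraries among 39 tested genes for neuropeptides, peptide ligands and their receptors. As a set this list leaned slightly below 0, with a median interaction of -0.16 with 8 libraries and -0.18 with 6. Of the 39 genes, 21 were below 0 with 8 libraries and 27 with 6. At an unadjusted p under 0.05 (limma, 8 libraries), 10 were below and 5 above 0.

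Among matrix genes, Prg4, which encodes the joint lubricant lubricin, was at 182 and 211 for WT, 106 and 125 for Tfam+/-, 188 and 144 for Zbp1-/- and 600 and 627 for Tfam+/-Zbp1-/-. Here the WT and Zbp1-/- libraries overlapped, and the interaction was 2.66 ± 0.25 (limma adjusted p = 0.0187), or 2.35 in 6 libraries. Thbs4, a thrombospondin of tendon, gave 2.09 and 2.36 in 8 and 6 libraries, the matrix protein gene Abi3bp gave 2.05 and 1.63, and Itih5, which encodes a hyaluronan-binding protein, gave 1.91 and 1.60. Clec14a, a lectin best known from endothelium, gave 2.11 and 1.66. These 4 genes had limma adjusted p-values of 0.0465, 0.0353, 0.0379 and 0.0474.

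The matrix list as a whole went both ways: of 65 tested genes 2 were called above and 2 below 0 with 8 libraries, 26 above and 25 below with 6, and the medians were -0.12 in 8 and -0.01 in 6 libraries. Tnc and Loxl2 were the genes below 0. Tnc, the matrix protein tenascin C, stood at 43101 and 42555 for WT, 63635 and 57228 for Tfam+/-, 49199 and 55445 for Zbp1-/- and 36370 and 36454 for Tfam+/-Zbp1-/-. Tfam+/- was highest and Tfam+/-Zbp1-/- lowest, and the interaction was -1.02 (limma adjusted p = 0.0379), or -0.85 in 6 libraries. Loxl2, a collagen crosslinking enzyme, gave -0.94 (limma adjusted p = 0.0299), or -0.87 in 6 libraries.

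Evi2b, a leukocyte membrane protein gene, had the highest called value, 5.26 (limma adjusted p = 0.0204). It was listed at 0 in both Zbp1-/- libraries, against 54.9 and 51.5 for WT, 27.1 and 62.3 for Tfam+/- and 30.3 and 27.5 for Tfam+/-Zbp1-/-. Evi2, an entry that overlaps it on chromosome 11, had 37.7 and 29.2 in the Zbp1-/- libraries and 0 in the other 6. The pair exchanged places, so how reads were shared between the entries and how much was transcribed cannot be told apart, and the value of Evi2b is not a measure of a change of expression.

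**Figure D2:**
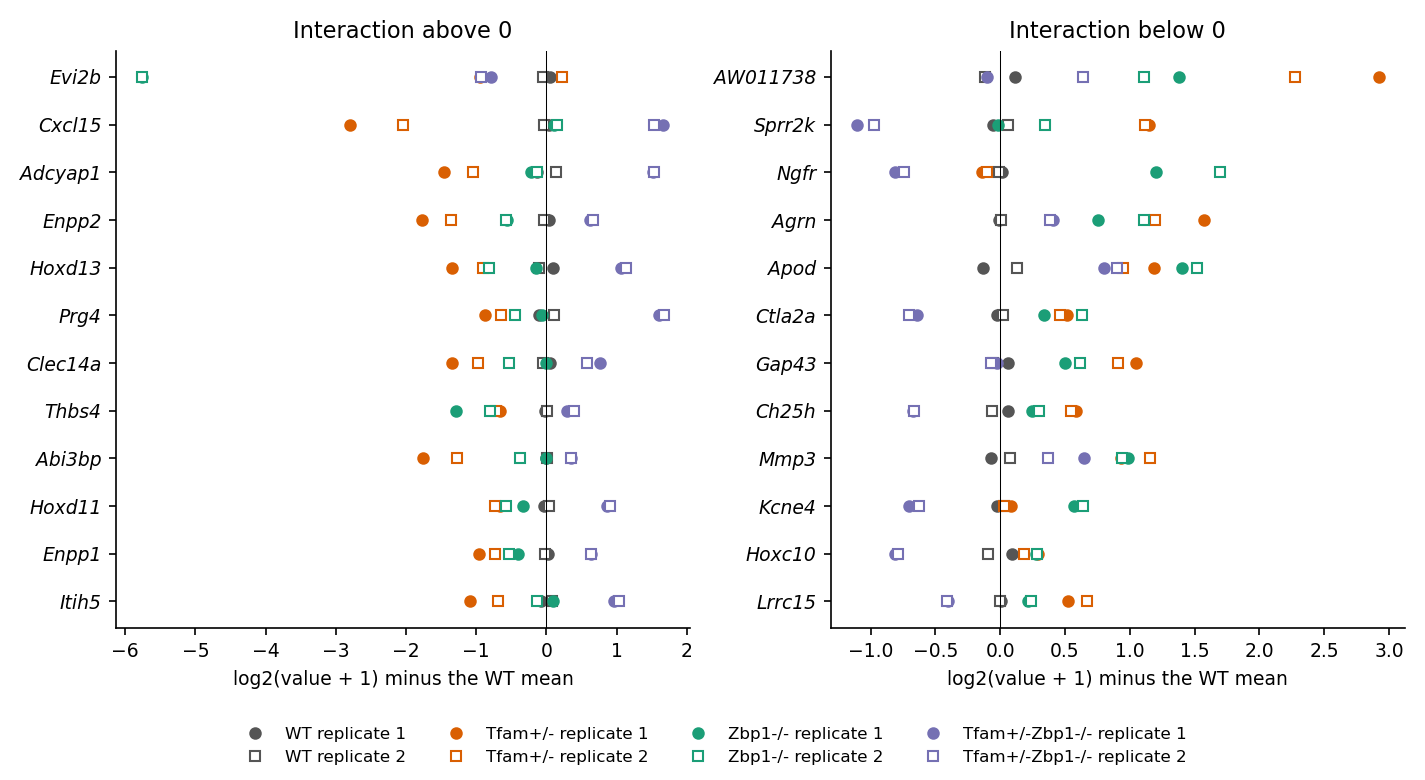
The 12 genes with the highest and the 12 with the lowest called interaction, with each library's log2(value + 1) less the WT mean on the x axis. Filled circles are replicate 1 and open squares replicate 2 of each genotype; on the left the Tfam+/-Zbp1-/- libraries lie to the right of both Zbp1-/- libraries for all 12 genes, and on the right they lie to the left.

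Genes below 0 included a neurotrophin receptor and growth-cone, lipid and matrix genes. Ngfr, the low-affinity neurotrophin receptor, was at 116 and 114 for WT, 104 and 107 for Tfam+/-, 266 and 374 for Zbp1-/- and 65.1 and 68.3 for Tfam+/-Zbp1-/-. It was high in Zbp1-/- and lowest in Tfam+/-Zbp1-/-, and the interaction was -2.11 ± 0.26 (limma adjusted p = 0.0299), or -1.88 in 6 libraries. Gap43, a growth-cone protein gene, read 594 and 548 for WT, 1178 and 1070 for Tfam+/-, 806 and 874 for Zbp1-/- and 560 and 542 for Tfam+/-Zbp1-/-. Tfam+/- was highest, and Tfam+/-Zbp1-/- overlapped WT, with an interaction of -1.58 ± 0.16 (limma adjusted p = 0.0193), or -1.45 in 6 libraries.

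Mmp3, which encodes the matrix protease stromelysin-1, was at 176 and 195 for WT, 355 and 414 for Tfam+/-, 368 and 357 for Zbp1-/- and 291 and 240 for Tfam+/-Zbp1-/-. Each single genotype was above WT, and Tfam+/-Zbp1-/- lay between, an interaction of -1.5 ± 0.21 (limma adjusted p = 0.0403), or -1.63 in 6 libraries. In the lipocalin gene Apod Tfam+/-Zbp1-/- also lay between WT and the single genotypes, of which Zbp1-/- was the higher, with values of -1.68 and -1.5 in 8 and 6 libraries. Lrrc15, a membrane protein of activated fibroblasts, gave -1.23 and -1.29, the potassium channel subunit gene Kcne4 -1.32 and -1.26, Ctla2a, related to cathepsin propeptides, -1.64 and -1.47, and Sprr2k, of the cornified envelope family, -2.34 and -2.14. The limma adjusted p-values of these 5 genes were 0.0327, 0.0204, 0.0299, 0.0221 and 0.0299.

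Of the called genes described next, Fzd5 and Slit3 belong to lists of Wnt signalling and guidance genes, and the others were named after their values were seen. Above 0, the protocadherin Fat4, which takes part in planar cell polarity, was at 3574 and 3491 for WT, 2040 and 2140 for Tfam+/-, 5982 and 5797 for Zbp1-/- and 7268 and 7374 for Tfam+/-Zbp1-/-, an interaction of 1.07 (limma adjusted p = 0.0235), or 1.01 in 6 libraries. Gpsm2, which orients the mitotic spindle, gave 1.04 and 0.97 in 8 and 6 libraries, and Ctnnal1, related to alpha-catenin, 1.36 and 1.18. Shtn1, which acts in axon outgrowth, gave 1.89 and 2.16, Frmd5 1.85 and 1.59, and Lypd6, a modulator of Wnt signalling, 1.74 and 1.48. The Wnt receptor Fzd5 gave 1.06 and 1.02, the matrix protein gene Coch 1.64 and 1.47, and the transcription factor Sim2 1.43 and 1.46.

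Enpep, which encodes aminopeptidase A, was at 389 and 407 for WT, 85.9 and 107 for Tfam+/-, 280 and 247 for Zbp1-/- and 231 and 239 for Tfam+/-Zbp1-/-, an interaction of 1.88 (limma adjusted p = 0.0224), or 1.63 in 6 libraries. It was lowest in Tfam+/-, and the Zbp1-/- and Tfam+/-Zbp1-/- libraries lay between it and WT. Below 0, Slit3, an axon guidance ligand, was at 4984 and 4881 for WT, 6184 and 5934 for Tfam+/-, 9358 and 9420 for Zbp1-/- and 5625 and 5559 for Tfam+/-Zbp1-/-, an interaction of -1.04 (limma adjusted p = 0.0224), or -1.01 in 6 libraries. It was highest in Zbp1-/-, and so was Dpt, the matrix protein dermatopontin, at -1.19 and -1.05. Also below 0 were Gsto1, a glutathione transferase (-1.17 and -0.94), Syt13, a synaptotagmin (-1.05 and -0.91), Tenm4, a teneurin (-1.03 and -0.94), Heg1, a membrane protein of vessel development (-0.97 and -1.04), and Akap12, a scaffold of protein kinase A (-0.87 and -0.76).

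Of the 22 called genes below 0, 3 lay within 100 kb of a tested gene of the interferon lists (13.6%), and 0 of the 29 above 0 did. The share was 3.69% of the 12846 tested genes outside the lists that have a RefSeq position. Among genes called below 0 in 6 libraries it was 3.75%, near that over all genes. The 3 genes lie near Isg15 and Ifit2 only, so the share of 13.6% rests on few places. AW011738 and Agrn flank Isg15, an interferon-stimulated ubiquitin-like gene, on chromosome 4 (mm10): AW011738 begins 2466 bases from it at 156203284 and Agrn ends 1891 bases from it at 156197533. Isg15 itself was at 49.0 and 71.7 for WT, 1410 and 1038 for Tfam+/-, 80.9 and 103 for Zbp1-/- and 150 and 180 for Tfam+/-Zbp1-/-, an interaction of -3.49 (limma adjusted p = 0.0193), or -3.09 in 6 libraries.

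AW011738 was at 7.77 and 6.48 for WT, 60.3 and 38.1 for Tfam+/-, 20.1 and 16.5 for Zbp1-/- and 6.54 and 11.6 for Tfam+/-Zbp1-/-, an interaction of -3.57 ± 0.52 (limma adjusted p = 0.0465), or -3.38 in 6 libraries. Agrn, the heparan sulfate proteoglycan agrin, was at 1219 and 1228 for WT, 3639 and 2799 for Tfam+/-, 2068 and 2635 for Zbp1-/- and 1627 and 1600 for Tfam+/-Zbp1-/-, an interaction of -1.92 ± 0.23 (limma adjusted p = 0.0299), or -1.55 in 6 libraries. Both neighbours were highest in Tfam+/-, as Isg15 was, and whether reads running past Isg15 add to them was not tested. The third was Ch25h, 75402 bases from Ifit2 on chromosome 19, which makes 25-hydroxycholesterol and is known to respond to interferon although neither list holds it. Ch25h was at 145 and 133 for WT, 209 and 203 for Tfam+/-, 165 and 171 for Zbp1-/- and 86.9 and 87.0 for Tfam+/-Zbp1-/-, an interaction of -1.51 (limma adjusted p = 0.0261), or -1.46 in 6 libraries.

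Promoters of the called genes were searched for short motifs in RefSeq sequences of GRCm38.p6 (the assembly mm10), from 250 bases before to 50 after each annotated start. Some genes have several starts in the RefSeq promoter table, and a gene was counted if any of them held the letters. Sequences were found for 23 of the 29 genes above 0 and 16 of the 22 below. The letters TATAAA of the TATA box, on either strand, were in 8 of 23 (34.8%) and 6 of 16 (37.5%). They were in 8.68% of 10222 genes outside the interferon lists and 15.7% of all 27025 genes with a promoter sequence. The letters GAAANNGAAA, the core of the element that interferon-activated factors bind, were in 1 of each set (4.35% and 6.25%). They were in 3.14% of the 10222 genes and 48.0% of 50 genes of the core interferon list. In the larger sets called from 6 libraries, TATAAA was in 11.8% of genes above and 12.9% of genes below 0. Among the 24 genes named by size, 4 hold TATAAA in the last 60 bases before the start, and these bases are shown because they place that motif close to a RefSeq start, with TATAAA in capitals. For Adcyap1 the start is the one whose window held the letters, and it lies inside the listed gene, downstream of its first base. The stretches are chr5:90794474-90794533, chr17:93199108-93199167, chr3:92432522-92432581 and chr9:7445762-7445821, all on the plus strand.
Cxcl15: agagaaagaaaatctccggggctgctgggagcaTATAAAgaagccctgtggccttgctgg
Adcyap1: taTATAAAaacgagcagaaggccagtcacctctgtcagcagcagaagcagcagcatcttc
Sprr2k: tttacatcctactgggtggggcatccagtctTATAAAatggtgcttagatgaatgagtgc
Mmp3: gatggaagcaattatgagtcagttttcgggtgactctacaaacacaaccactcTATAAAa
A further 6 motifs were searched in the same way. CCAAT was in 39.1% of genes above and 12.5% of genes below 0, against 43.1% of the 10222 genes, and TTTGAA in 17.4% and 12.5% against 14.2%. In genes above and below 0, GGGANNNNCC (NF-kappaB) was in 17.4% and 25.0%, against 30.7% of the 10222 genes. TGANTCA (AP-1) was in 4.35% and 25.0% against 6.09%, TGACGTCA (cyclic AMP response element) in 0% and 6.25% against 3.63%, and TTCGAA in 0% of both against 2.47%. A match is only a match of letters.

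Hox genes split by cluster and by position within it. These genes set position along the body axis, and the high-numbered genes of the Hoxa and Hoxd clusters also pattern the limb toward hand and foot. With 8 libraries 4 of 34 tested Hox genes were called: Hoxd13 and Hoxd11 above 0, Hoxc10 and Hoxb9 below. Hoxd13 was at 998 and 871 for WT, 367 and 499 for Tfam+/-, 839 and 531 for Zbp1-/- and 1959 and 2053 for Tfam+/-Zbp1-/-. Tfam+/-Zbp1-/- was above and Tfam+/- below all other libraries, and the interaction was 2.71 ± 0.34 (limma adjusted p = 0.0299), or 2.16 in 6 libraries. Hoxd11, of the same cluster, was at 159 and 168 for WT, 103 and 97.7 for Tfam+/-, 130 and 109 for Zbp1-/- and 299 and 306 for Tfam+/-Zbp1-/-. It had the same order, with an interaction of 2.04 ± 0.20 (limma adjusted p = 0.0193), or 1.95 in 6 libraries.

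Hoxb9 and Hoxc10 were lowest in Tfam+/-Zbp1-/-. Hoxb9 was at 836 and 852 for WT, 935 and 883 for Tfam+/-, 992 and 960 for Zbp1-/- and 471 and 457 for Tfam+/-Zbp1-/-, an interaction of -1.18 (limma adjusted p = 0.0261), or -1.16 in 6 libraries. Hoxc10 was at 222 and 195, 255 and 237, 252 and 254, and 118 and 120 in these genotypes in turn, an interaction of -1.32 (limma adjusted p = 0.0379), or -1.26 in 6 libraries. The other 3 genotypes lay close together in both genes.

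The following division by cluster was made after the values were seen and has no test. The 4 tested Hoxa genes numbered 9 to 13 were all above 0 in both fits, with medians of 1.16 and 0.97 in 8 and 6 libraries, and so were the 4 Hoxd genes numbered 10 to 13, with medians of 1.92 and 2.05. All 8 tested Hoxb genes were below 0, with medians of -1.03 and -1.08. Of 7 Hoxc genes, 6 were below 0 with 8 libraries and 7 with 6, with medians of -0.67 and -0.64. The 4 Hoxd genes numbered 3 to 9 were below 0 in both, with medians of -0.67 and -0.84, and the 7 Hoxa genes numbered 1 to 7 had medians of 0.36 and -0.04, with 6 above 0 in 8 libraries and 3 in 6. None of these 7 was called by limma in either fit. Over all 34, limma called 8 above and 14 below 0 in 6 libraries, and the medians were -0.07 in 8 and -0.38 in 6 libraries.

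**Figure D3:**
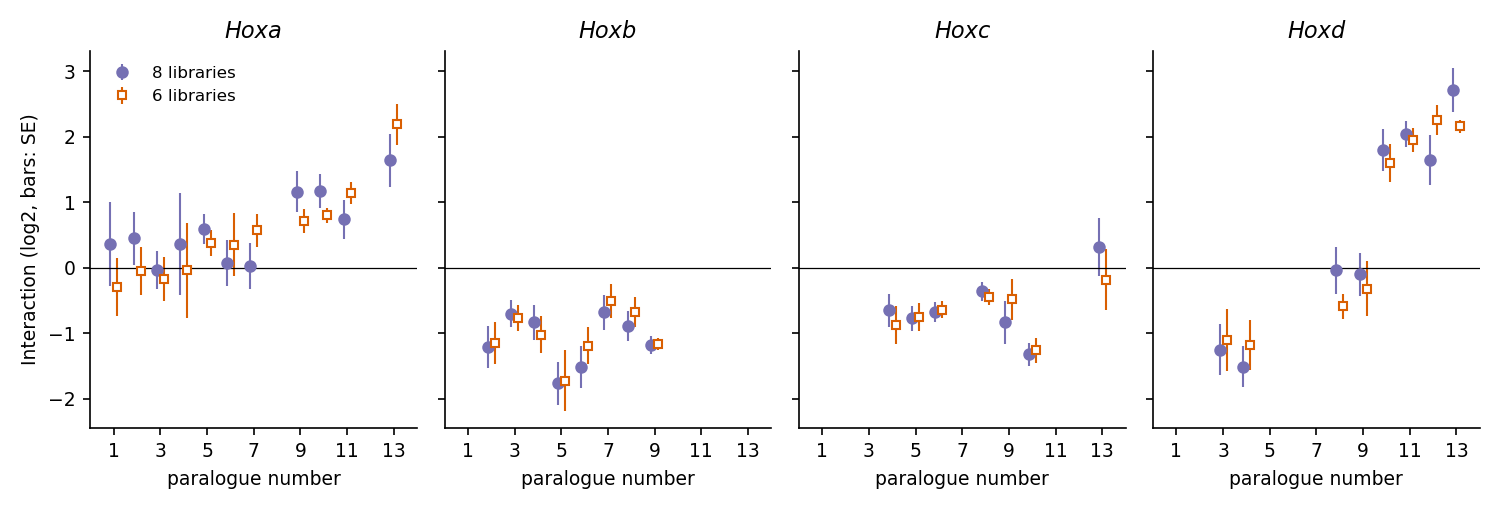
Interaction (log2, y axis) of each tested Hox gene against its paralogue number (x axis), one panel per cluster. Purple circles are from 8 libraries, orange squares from 6, and bars are standard errors; the Hoxd panel goes from values below 0 at its low numbers to 1.65 or more with 8 libraries at numbers 10 to 13, while the Hoxb panel is below 0 throughout.

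Other patterning factors were called in both directions. The list of 87 tested transcription factors of patterning had 2 called above 0 with 8 libraries, Lhx2 and Lhx9, both LIM factors of limb and other buds. In 6 libraries limma called 26 above (29.9%) and 14 below (16.1%), and the medians were 0.39 in 8 and 0.18 in 6 libraries. Lhx2 was at 63.3 and 66.2 for WT, 40 and 43.6 for Tfam+/-, 95.9 and 76.2 for Zbp1-/- and 209 and 193 for Tfam+/-Zbp1-/-. Its genotypes did not overlap, with an interaction of 1.84 (limma adjusted p = 0.0349), or 1.62 in 6 libraries. Lhx9 gave 1.58 (limma adjusted p = 0.0379) and 1.36.

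Called only in 6 libraries were Sall1 (1.65), a limb and kidney zinc finger factor, and Pax9 (1.44). The limb factors Tbx4 and Tbx5, chosen for mention after their values were seen, gave 0.98 and 0.99 in 6 libraries. Pax3, a factor of somites and neural crest, gave -1.90: it was at 49.0 and 43.5 in WT and between 119 and 158 in the 6 mutant libraries, with each single mutant already at the level of Tfam+/-Zbp1-/-. With 8 libraries the interactions of these 5 genes were 1.74, 1.37, 1.06, 0.94 and -1.57, and the adjusted p by limma was 0.0600, 0.0947, 0.110, 0.159 and 0.0723.

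The cartilage and bone list leaned above 0. Of 20 tested genes 3 were called with 8 libraries, all above 0 (Prg4, Erg and Col10a1). In 6 libraries 8 were called above and 1 below, and the medians were 0.69 in 8 and 0.55 in 6 libraries. Col10a1, a collagen of hypertrophic cartilage, was at 480 and 462 for WT, 284 and 304 for Tfam+/-, 828 and 825 for Zbp1-/- and 1341 and 1295 for Tfam+/-Zbp1-/-, an interaction of 1.35 (limma adjusted p = 0.0204), or 1.30 in 6 libraries. Erg, a factor of joint cartilage and endothelium, gave 1.81 (limma adjusted p = 0.0357), or 1.84 in 6 libraries. Comp, a cartilage matrix protein, gave 2.26 in 8 and 2.94 in 6 libraries (limma adjusted p = 0.132 and 7.8e-05). Of the 20 genes, 3 were below 0 with 8 libraries and 4 with 6. The cartilage collagen Col2a1 was below 0 in both, at -1.13 with 8 (limma adjusted p = 0.182) and -0.64 with 6. The cartilage genes Sox9 and Acan, named after their values were seen, gave 0.39 and 0.34 with 8 libraries. With 6 they gave -0.14 and 0.57.

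Most genes of cell division were above 0, and with all libraries none passed the test. With 8 libraries limma called 0 of 58 tested mitosis genes, 29 of which had an unadjusted p under 0.05, all above 0, and the median interaction was 0.55, with 52 above and 6 below 0. In 6 libraries it called 44 above 0 (75.9%) and 0 below, with a median of 0.39. The mean log2 level of the list was 9.59 for both WT libraries, 9.44 and 9.65 for Tfam+/-, 9.37 and 9.24 for Zbp1-/- and 9.83 and 9.82 for Tfam+/-Zbp1-/-. The list was highest in Tfam+/-Zbp1-/- and lowest in Zbp1-/-, while the Tfam+/- libraries lay on either side of WT. Genes of DNA replication and the G1/S step followed with 17 of 52 called above 0 in 6 libraries (32.7%), and 0 below. With 8 libraries limma called 0 of them, with 12 above 0 at an unadjusted p under 0.05, and the medians were 0.28 in 6 and 0.22 in 8 libraries.

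Cdkn3, Ect2, Pbk and Sgo1 were picked for large interactions in 6 libraries, where the median of the list was 0.39, so they do not show its typical size. Named after their values were seen, Cdk1, Mki67, Top2a and Ccnb1 gave 0.31, 0.31, 0.38 and 0.56 in 6 libraries. With 8 these 4 genes gave 0.24, 0.53, 0.81 and 0.93. Cdkn3, a phosphatase acting on cyclin-dependent kinases, was at 168 and 169 for WT, 143 and 161 for Tfam+/-, 111 and 134 for Zbp1-/- and 202 and 213 for Tfam+/-Zbp1-/-, an interaction of 0.96 in 6 and 0.91 in 8 libraries (limma adjusted p = 0.00154 and 0.129). Ect2, a regulator of cytokinesis, was at 1252 and 1223, 649 and 1116, 965 and 529, and 1438 and 1377 in the same order, with 0.69 in 6 and 1.52 in 8 libraries (limma adjusted p = 3.1e-06 and 0.238). Its lowest values, 649 and 529, were in the 2 shifted libraries. The kinase gene Pbk gave 0.75 and 1.29, and Sgo1, a protector of sister chromatid cohesion, 0.68 and 1.09, in 6 and 8 libraries.

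The promoters of these genes are shown because many of them hold letters known from cell cycle promoters. TTTGAA, the letters of the cell cycle homology region, on either strand, was in 70.8% of the 48 mitosis genes with a RefSeq promoter, against 14.2% of the 10222 genes outside the interferon lists and 20.2% of all promoters. CCAAT was in 75.0% of them, against 43.1% and 41.1%. Of the 41 replication genes with a promoter, 14.6% held TTTGAA and 61.0% CCAAT. The 120 bases before the start follow for the 3 mitosis genes with the largest interaction in 6 libraries that hold TTTGAA there, with TTTGAA and CCAAT of either strand in capitals. Starts are those of the RefSeq promoter table, and those of Cdkn3 and Ect2 lie inside the listed gene. Cdc20 gave 0.55 in 6 and 0.04 in 8 libraries. Cdkn3 is chr14:46760421-46760540 on the plus strand, Ect2 chr3:27153879-27153998 and Cdc20, the activator of the anaphase-promoting complex, chr4:118437344-118437463, both on the minus strand.
Cdkn3: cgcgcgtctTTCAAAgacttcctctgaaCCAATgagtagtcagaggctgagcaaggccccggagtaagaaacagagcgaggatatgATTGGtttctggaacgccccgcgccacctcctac
Ect2: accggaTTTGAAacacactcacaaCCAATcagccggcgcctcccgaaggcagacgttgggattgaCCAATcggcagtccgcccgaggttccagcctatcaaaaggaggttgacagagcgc
Cdc20: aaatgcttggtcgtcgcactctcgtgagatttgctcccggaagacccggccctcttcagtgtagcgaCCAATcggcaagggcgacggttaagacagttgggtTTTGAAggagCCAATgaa

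Of the other cell types that MEF cultures can hold, mesothelial, macrophage and endothelial markers had medians below 0. They were not alone in this. Medians were -0.40 in 8 and -0.26 in 6 libraries for 12 pericyte and smooth muscle markers, and -0.33 and -0.15 for 17 adipogenic markers. With 8 libraries limma called 0 genes of these last lists. Each had 5 below 0 at an unadjusted p under 0.05, with 0 and 3 above 0. In bulk RNA, fewer cells of a type and less RNA per cell cannot be told apart. Mesothelial markers had 0 of 14 called by limma with 8 libraries (7 below 0 at an unadjusted p under 0.05) and, in 6, 10 below 0 (71.4%) and 1 above, with medians of -0.67 in 8 and -0.72 in 6 libraries. Their mean log2 level was 8.14 and 8.18 for WT, 8.11 and 8.09 for Tfam+/-, 8.16 and 8.11 for Zbp1-/- and 7.47 and 7.5 for Tfam+/-Zbp1-/-. The other 3 genotypes lay between 8.09 and 8.18, and the Tfam+/-Zbp1-/- pair lay below. The summed level, which the most abundant markers set, did not show this: it was 15167 and 15099 for WT, 13162 and 12957 for Tfam+/-, 19823 and 19511 for Zbp1-/- and 13436 and 13107 for Tfam+/-Zbp1-/-.

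Aldh1a2, which makes retinoic acid and marks mesothelium, was at 127 and 125 for WT, 120 and 131 for Tfam+/-, 116 and 125 for Zbp1-/- and 54.9 and 51.1 for Tfam+/-Zbp1-/-, an interaction of -1.16 with 8 libraries and -1.17 with 6 (limma adjusted p = 0.0685 and 0.00307). The uroplakin gene Upk3b was at 613 and 611, 607 and 494, 559 and 642, and 280 and 284 in the same order, with -0.92 and -0.67 (limma adjusted p = 0.110 and 3.6e-04). In both, the Tfam+/-Zbp1-/- pair lay below every other library. Msln, mesothelin, was 1 of 3 among the 14 markers that were above 0 in 6 libraries, at 0.28, and was at -0.21 with 8.

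Macrophage and leukocyte markers other than those of the interferon lists had medians of -0.67 and -0.65 in 8 and 6 libraries over 35 tested genes. In 6 libraries 16 were called below 0 (45.7%) and 1 above, Evi2b, which was also the only one called with 8 libraries. Their summed level was 8736 and 8641 for WT, 11481 and 10330 for Tfam+/-, 5777 and 5504 for Zbp1-/- and 4414 and 4664 for Tfam+/-Zbp1-/-, so they were highest in Tfam+/- and lowest in Tfam+/-Zbp1-/-. Csf1r, the receptor for macrophage growth factor, was at 469 and 494, 702 and 571, 353 and 315, and 237 and 243 in that order, with an interaction of -0.86 and -0.80 (limma adjusted p = 0.127 and 2.1e-04). The pan-leukocyte marker Ptprc had values of 49.9 to 169 and was called in neither fit.

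Endothelial markers had medians of -0.68 in 8 and -0.57 in 6 libraries over 12 tested genes, with 5 below and 2 above 0 called in 6 libraries and 1, Erg, above 0 with 8. Their summed level was 2474 to 3350, highest in Tfam+/- and lowest in WT, and the defining marker Pecam1 was at 0 to 3.81. Skeletal muscle and epithelial lists had medians of -0.36 and -0.11 in 8 libraries and -0.27 and 0 in 6. Neuronal and neural crest lists turned sign, with medians of 0.06 and 0.07 in 8 libraries and -0.16 and -0.11 in 6. Whether the share of other cells has a part in the results above was not tested.

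**Figure D4:**
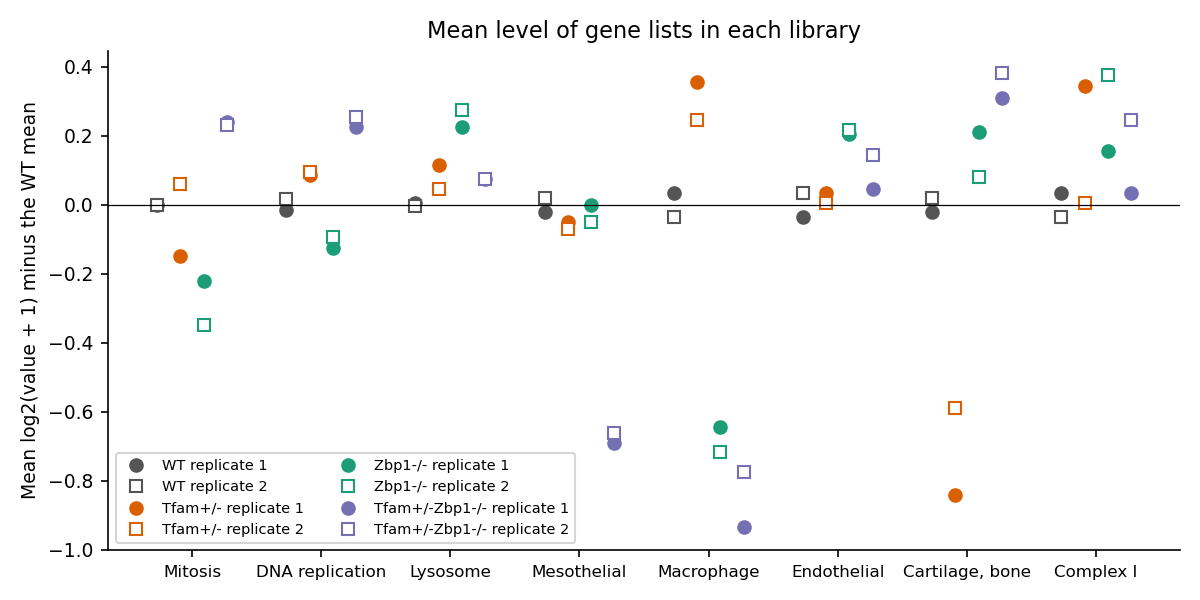
Mean log2(value + 1) of the tested genes of 8 lists in each library, less the mean of the WT pair (y axis). Filled circles are replicate 1 and open squares replicate 2; mesothelial markers are low in the Tfam+/-Zbp1-/- pair, mitosis genes are highest there, and complex I genes differ between replicates of a genotype.

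Lysosomal and complement genes outside the interferon lists were mostly below 0, while chemokines were mixed. Of 37 tested chemokines, cytokines and their receptors, 12 were below (32.4%) and 4 above 0 (10.8%) in 6 libraries, and Cxcl15, above 0, was the only gene called with 8. The medians were -0.12 in 8 and -0.26 in 6 libraries, and with 8 libraries 17 were above and 20 below 0. Ccl2, the monocyte chemoattractant, was at 769 and 760 for WT, 1589 and 2205 for Tfam+/-, 1134 and 856 for Zbp1-/- and 931 and 886 for Tfam+/-Zbp1-/-, an interaction of -1.41 with 8 and -1.85 with 6 libraries (limma adjusted p = 0.0928 and 4.7e-11). Tfam+/- was above all the others and the remaining genotypes were close. Complement and coagulation genes had 10 below and 2 above 0 of 24 in 6 libraries, with medians of -0.28 in 8 and -0.33 in 6 libraries. With 8 libraries limma called 0 of them, and 7 below and 2 above 0 had an unadjusted p under 0.05.

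Lysosomal genes had 21 of 37 below 0 (56.8%) and 1 above in 6 libraries, with medians of -0.36 with 8 libraries and -0.20 with 6. With 8 limma called 0, and 11 had an unadjusted p under 0.05, all below 0. Ctsl, the protease cathepsin L, was at 9954 and 10196 for WT, 10931 and 11489 for Tfam+/-, 10305 and 9976 for Zbp1-/- and 8385 and 8739 for Tfam+/-Zbp1-/-, an interaction of -0.46 in 6 libraries and -0.40 with 8 (limma adjusted p = 4.3e-07 and 0.228). Matrix proteases and their inhibitors had 15 of 41 below (36.6%) and 5 above 0 in 6 libraries, with Mmp3 the 1 called with 8 and medians of -0.26 in 8 and -0.23 in 6 libraries.

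Signalling lists went both ways. The counts that follow are of genes called in 6 libraries, where 10.1% of all genes outside the interferon lists were called above and 8.31% below 0. Of 47 tested Wnt pathway genes, 13 were above (27.7%) and 8 below 0 (17%), with Fzd5 the 1 called with 8 and medians of 0.14 in 6 and 0.18 in 8 libraries. Transforming growth factor beta and bone morphogenetic protein genes had 11 above (23.9%) and 10 below (21.7%) of 46, with medians of 0.06 in 6 and 0.27 in 8 libraries. Hedgehog and Notch genes had 8 above (33.3%) and 4 below (16.7%) of 24, with medians of 0.19 and 0.12, and retinoid and steroid genes 7 above (26.9%) and 4 below (15.4%) of 26, with medians of 0.17 and 0.51. With 8 libraries limma called 0 genes of these last 3 lists, with 16, 7 and 12 at an unadjusted p under 0.05. A wider growth factor list held Ngfr, Vegfc, Kitl and Spry1 besides fibroblast, insulin-like and platelet-derived growth factors and their receptors. By sign alone, 33 of its 50 genes were below 0 in 6 libraries and 28 with 8, with medians of -0.17 and -0.03. With 8 libraries, 10 of the 50 were below and 3 above 0 at an unadjusted p under 0.05 (limma). Ngfr was the 1 gene of this list called with 8, below 0. Contractile genes of myofibroblasts had 2 above (7.14%) and 12 below (42.9%) of 28, targets of SRF and YAP 1 above (4.00%) and 11 below (44.0%) of 25, and imprinted genes 4 above (11.4%) and 14 below (40%) of 35. In the contractile, SRF and imprinted lists limma called 0 genes with 8 libraries, with 8, 7 and 11 at an unadjusted p under 0.05. Of the 2000 genes outside the interferon lists with an unadjusted p under 0.05 only 51 passed the adjusted test.

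In 4 lists of nuclear genes for mitochondrial proteins no gene was called with all libraries. With 8 libraries limma called 0 of 36 complex I subunits, 40 subunits of complexes II to V, 77 genes of the mitochondrial ribosome and 36 of mitochondrial DNA maintenance and expression. The numbers with an unadjusted p under 0.05 were 1, 1, 5 and 3, against 2000 of all 13062 genes outside the interferon lists. The medians were -0.29, -0.19, -0.21 and 0.08, and in 6 libraries 0.07, 0.08, 0.09 and 0.07. Called in 6 libraries were 0 of 36, 9 of 40 (22.5%, all above 0), 4 above (5.19%) and 1 below (1.30%) of 77, and 1 of 36 (2.78%, below 0). Complexes II to V were thus over the 10.1% called above 0 among all genes, and the other 3 lists were under it. The sign of 3 of these 4 medians thus turned when the shifted libraries were left out.

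The shifted libraries moved some lists more than the interaction did. Cytosolic ribosome genes were higher by a median of 0.36 in Tfam+/- replicate 1 than in replicate 2 and by 0.37 in Zbp1-/- replicate 2 than in replicate 1. Their interaction was -0.34 with 8 libraries and 0.04 with 6. Splicing regulators of the SR family and targets of nonsense-mediated decay were lower in the same libraries, with median differences of -0.34 and -0.40, and their median went from 0.53 to 0.20, with 12 of 28 above and 2 below 0 called in 6 libraries. Of the 63 lists outside the interferon genes, 20 had medians of opposite sign in the 2 fits.

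**Figure D5:**
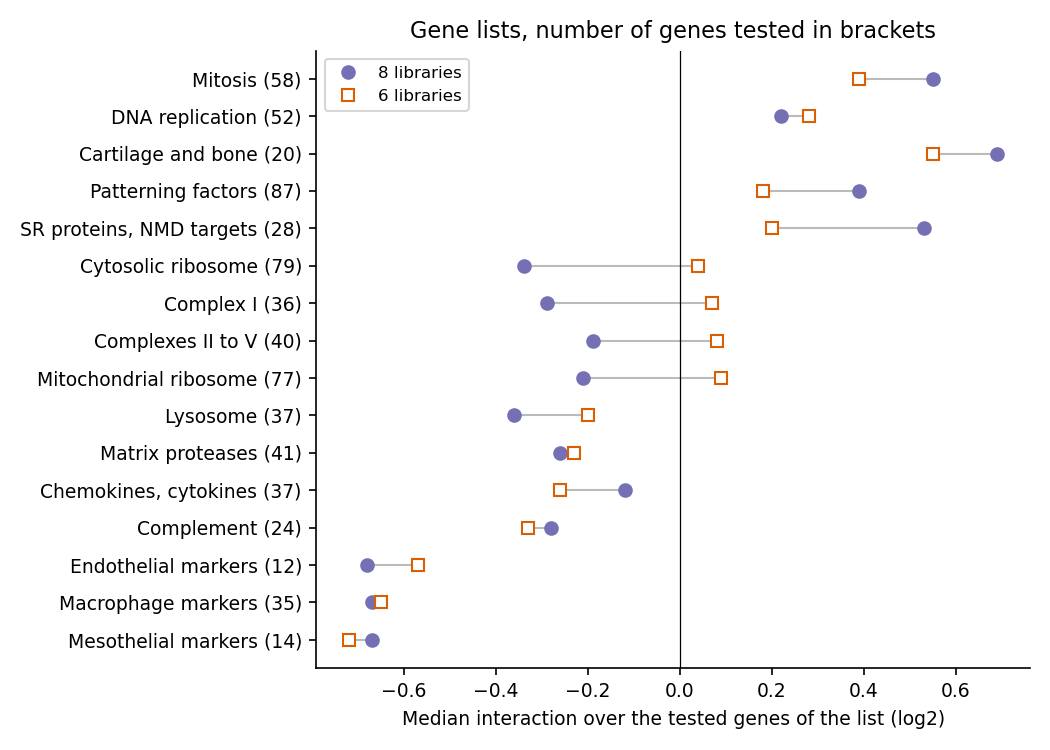
Median interaction (log2, x axis) of 16 gene lists with 8 libraries (purple circles) and with 6 (orange squares); the number of genes tested is in brackets. The 2 values are near each other for mesothelial and macrophage markers and lie on either side of 0 for ribosomal and mitochondrial lists.

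Values from 6 libraries rest on 1 library each of Tfam+/- and Zbp1-/-. Among the 13062 genes, 14 were below 1 in one and at 20 or more in the other library of Tfam+/- or of Zbp1-/-. Of these 5 were called in 6 libraries and 0 in 8. An example chosen after its values were seen is Amd1, listed at 116 in Tfam+/- replicate 2 and at 0 in the other 7 libraries, whose interaction in 6 libraries was -6.88.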

How the data were processed

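RNA of 8 libraries was sequenced. Per the series' design text, alignment to mm10 (RefSeq) used STAR within the software RNAseq Alignment 2.0.0, followed by RNA-seq Differential Expression 1.0.0. The submitters' processing notes name STAR 2.6.1a and Salmon. What was deposited is a signal per gene, named normalized counts by the authors, and its values are not whole. How reads were counted, whether by strand, and how they were scaled was not given in the sources used here, so genes that overlap or have near copies are uncertain. Of low values (up to 20 times the commonest low value), 22.2% to 34.9% per library came within 0.01 of whole reads, so no count model was run.

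Genes with a mean of at least 10 were tested on log2(value + 1), which understates changes of low genes. limma 3.58.1 (R 4.3.3) fitted the 4 genotypes with a prior variance that followed expression (4 residual and 2.77 prior degrees of freedom with 8 libraries, 2 and 14.6 with 6). Tests were two-sided and p-values were Benjamini-Hochberg adjusted over all 13267 genes. TMM (trimmed mean of M-values) factors of an alternative were computed from the published formula, with trims of 30% and 5%.

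The interferon lists had 279 symbols, of which 266 matched. Genes named by size were the 12 highest and 12 lowest interactions called with 8 libraries that kept their sign at 1 or more in size in 6. In each list described, up to 4 genes with the largest interaction called in 6 libraries, and those called in 8, could be named. Other genes named were chosen after their values were seen. The gene lists, the motifs and the choice of this contrast were made with earlier results of these data known. Alternatives were other pseudocounts, filters, scalings, priors and weights, a replicate block, and leaving out each library. Names turned into dates (20 tested) are not named. Of the called genes, 1 is not reported here.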

Additional observations from a re-analysis of the deposited data

Results flagged for a closer look

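The interaction is itself the test of whether the effect of Tfam heterozygosity differs between cells with and without Zbp1, and the 24 genes named by size differ by it with 8 libraries (limma adjusted p under 0.05). Above 0 these were Evi2b (5.26, an entry that exchanged places with the overlapping Evi2), Cxcl15 (3.89), Adcyap1 (2.96), Enpp2 (2.78), Hoxd13 (2.71), Prg4 (2.66), Clec14a (2.11), Thbs4 (2.09), Abi3bp (2.05), Hoxd11 (2.04), Enpp1 (1.94) and Itih5 (1.91). Below 0 they were AW011738 (-3.57), Sprr2k (-2.34), Ngfr (-2.11), Agrn (-1.92), Apod (-1.68), Ctla2a (-1.64), Gap43 (-1.58), Ch25h (-1.51), Mmp3 (-1.5), Kcne4 (-1.32), Hoxc10 (-1.32) and Lrrc15 (-1.23). The choice of these 24 genes already required the same sign and a size of at least 1 in 6 of these libraries. Their values there, such as 2.16 for Hoxd13 and 2.36 for Thbs4, are therefore no separate support.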

How the results depend on the processing

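Of the 51 genes called, the count was 2406 without the 2 shifted libraries, 2114 with a term shared by them, 25 with no filter on low values, 0 with the replicate block (limma, 1269 at an unadjusted p under 0.05) and 0 with the WT and the Tfam+/-Zbp1-/- pair each averaged, an alternative chosen after seeing the data. Leaving out 1 library gave 0 to 89. The remaining alternatives gave 39 to 61. With 6 libraries, under alternatives added after seeing the data, the count went from 2406 to 1158 with no filter (427 above and 731 below 0) and to 268 with no trend in the prior; leaving out a WT or Tfam+/-Zbp1-/- library gave 2400 to 2684. The cause of these changes was not tested. Msln went to 0.28 without the shifted libraries and to 0.28 with their shared term. Replicate differences correlated at -0.698 across genes between Tfam+/- and Zbp1-/- and at -0.366 between WT and Tfam+/-Zbp1-/-. The other correlations lay between -0.0625 and 0.0591. Whether the replicate numbers pair samples cannot be decided from these values. The Tfam+/- and Zbp1-/- differences hold the library shift, and the other pairs differ by little more than counting noise. TMM and quantile scaling put the median of all genes at -0.01 and -0.07. The median of 31 of 63 lists kept its sign in all 21 settings, among them mitosis (0.39 to 0.60), cartilage and bone (0.55 to 1.01), lysosome (-0.39 to -0.20), macrophage (-0.79 to -0.60) and mesothelial markers (-0.81 to -0.49). The Hox, complex I and chemokine lists did not.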
